A study of Mus musculus with 6 samples.

Results

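The genes described here are the receptor chains that bind type I, type II and type III interferons and the JAK kinases attached to them: Ifnar1, Ifnar2, Ifngr1, Ifngr2, Ifnlr1, Il10rb, Jak1, Jak2 and Tyk2. They were chosen by gene symbol, and all 9 were found among the 55446 genes of the authors' deposited table and had been tested there. Crypts of the mouse ileum were profiled by RNA sequencing on day 3 of tamoxifen, in 3 Adar iΔgut and 3 Adar fl/fl libraries. Adar encodes an enzyme that edits adenosine to inosine in double-stranded RNA. Adar iΔgut mice (labelled Adar1 KO) carried floxed Adar alleles with VilCreERT2, a tamoxifen-activated Cre recombinase that the villin promoter directs to the intestinal epithelium, so other cell types in the crypt preparation are not targeted. Adar fl/fl mice (labelled WT) carried the same floxed alleles without the transgene, and both genotypes received tamoxifen. The labels give neither the age of the mice nor the exons between the loxP sites.

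The deposited values are 1 FPKM (fragments scaled to transcript length and to the number of fragments) per gene for a condition named TMX and 1 for a condition named con, each pooled by the authors. TMX was read as Adar iΔgut and con as Adar fl/fl. This is an assumption, since the table gives no genotype and both genotypes received tamoxifen. Adar itself stood at 52.0 FPKM in TMX and 19.5 FPKM in con (q = 0.0575 in the authors' deposited table), so the targeted gene was not lower in TMX. With the exons between the loxP sites unknown, a gene-level value does not settle the reading, and directions below are for the condition labelled TMX. A gene is called changed where the authors' q-value is under 0.05. No value per library was used, so no standard deviation, sample size or interval stands beside an FPKM, and sequencing depth is unknown.

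Interferons act through pairs of receptor chains, and each chain carries a JAK family tyrosine kinase on its cytoplasmic tail. The type I receptor joins IFNAR1, which binds TYK2, with IFNAR2, which binds JAK1. The type III receptor joins IFNLR1, which binds JAK1, with the shared chain IL-10Rβ, which binds TYK2, and it is known for its use by the intestinal epithelium. The type II receptor joins IFNGR1, which binds interferon-gamma and JAK1, with IFNGR2, which brings JAK2. Type I and III receptors signal to the nucleus through a complex that contains STAT2 and IRF9.

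In the mouse, Ifnar2, Il10rb, Ifnar1 and Ifngr2 lie in that order on the plus strand of chromosome 16 and span 193 kb in the GENCODE annotation of GRCm38. Ifngr1 is on chromosome 10 (19591949 to 19610229), Ifnlr1 and Jak1 on chromosome 4 (135686287 to 135708181 and 101152367 to 101265282), Jak2 on chromosome 19 (29251828 to 29313080) and Tyk2 on chromosome 9 (21104068 to 21131243). Of the chromosome 16 members only Ifngr2 was called changed. The RefSeq sequence before the starts of Ifngr2, Ifnar1 and Ifnar2 is shown as a description, and its part in any value was not tested. Each line holds the 250 bases before the RefSeq gene start in GRCm38.p6, with capitals marking a GC box (GGGCGG) or an interferon-gamma activated site (TTCNNNGAA) on either strand.
Ifngr2 (chr16:91546809-91547058, plus strand): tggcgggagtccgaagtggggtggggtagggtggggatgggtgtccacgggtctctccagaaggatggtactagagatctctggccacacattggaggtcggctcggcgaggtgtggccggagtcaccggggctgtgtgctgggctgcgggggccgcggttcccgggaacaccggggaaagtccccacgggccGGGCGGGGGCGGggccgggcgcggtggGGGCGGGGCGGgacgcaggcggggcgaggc
Ifnar1 (chr16:91484965-91485214, plus strand): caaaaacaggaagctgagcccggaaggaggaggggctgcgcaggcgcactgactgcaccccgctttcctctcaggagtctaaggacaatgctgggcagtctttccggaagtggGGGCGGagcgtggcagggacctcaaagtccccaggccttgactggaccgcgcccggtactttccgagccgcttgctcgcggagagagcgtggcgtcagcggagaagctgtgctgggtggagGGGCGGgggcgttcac
Ifnar2 (chr16:91372533-91372782, plus strand): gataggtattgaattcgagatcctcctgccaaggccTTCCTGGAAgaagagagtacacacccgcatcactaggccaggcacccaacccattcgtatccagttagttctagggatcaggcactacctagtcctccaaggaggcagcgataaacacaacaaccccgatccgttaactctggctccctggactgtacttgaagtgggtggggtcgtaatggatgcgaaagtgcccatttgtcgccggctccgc
The Ifngr2 stretch held 4 GC boxes, in 2 runs where they touch or overlap, and Ifnar1 held 2. Ifnar2 held none and had 1 match to the interferon-gamma activated site. The core of an interferon-stimulated response element (GAAANNGAA) had no match in any of the 8 members with a promoter entry. Over all 32851 promoter stretches of that length, 32.7% held a GC box, 7.02% the activated site and 7.13% the response element, and a match is a description of letters, not of binding. Bases G and C made up 74.0% of the Ifngr2 stretch, 65.6% of that of Ifnar1 and 54.0% of that of Ifnar2. They made up 80.8% of the stretch of Jak2, which was not called. GC boxes were also found in members not called, with 2 each for Ifngr1, Jak2 and Tyk2 and 1 each for Ifnlr1 and Jak1.

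Ifngr2, the chain that brings JAK2 into the interferon-gamma receptor, was lower in TMX and was the only member called. It stood at 6.37 FPKM in TMX and 28.5 FPKM in con in the authors' deposited table, which makes the TMX value 22.3% of the con value. Its log2 fold change, computed by the authors on FPKM + 1, was -2.00, with a p-value of 5e-05 (q = 0.00112 in the authors' deposited table). Both are the lowest values that table holds, and 704 genes share them. By FPKM, Ifngr2 was at rank 7637 of the 15762 tested genes in TMX and at rank 2586 in con. The other 8 members were not called, so 11.1% of the members changed, beside 12.3% of all tested genes (6.60% higher and 5.70% lower in TMX). The median log2 fold change was -0.07 over the members and 0.05 over all tested genes. Mature enterocyte markers were lower in TMX as well, with 10 of 18 tested called lower, and their part in the Ifngr2 value was not tested.

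**Figure D1:**
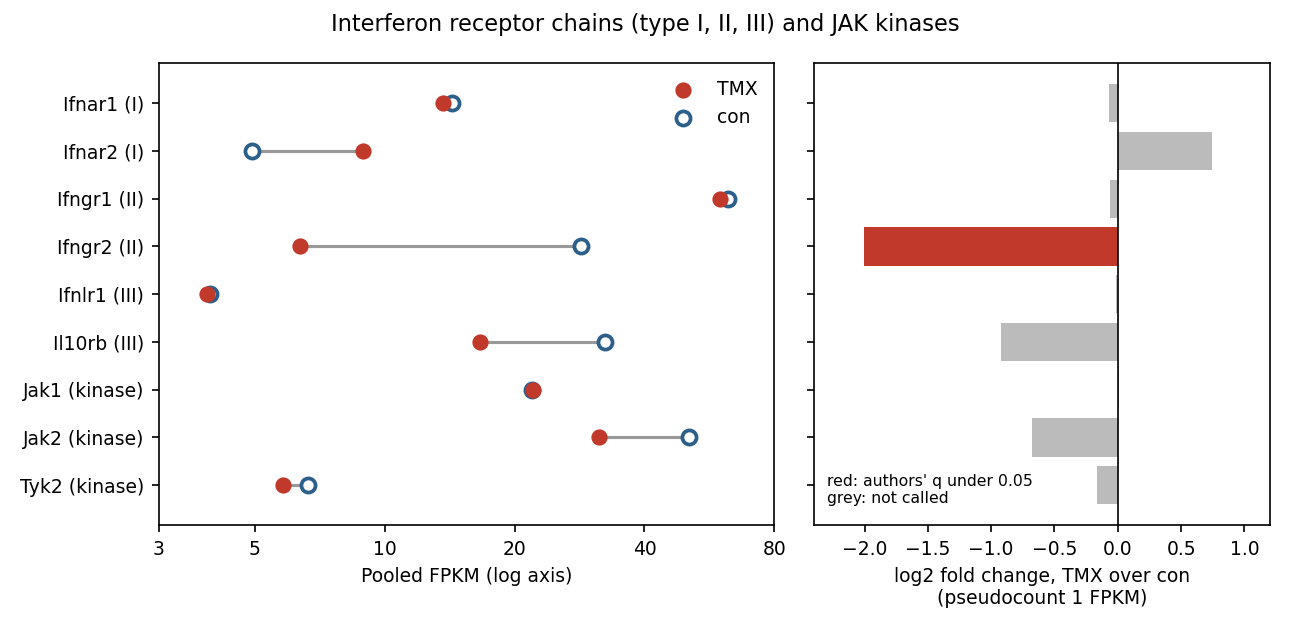
Pooled FPKM of each member in TMX (filled red) and con (open blue) on a log axis, and the log2 fold change of TMX over con with a pseudocount of 1 FPKM; type I, II and III mark the receptor a chain belongs to. There is 1 value per condition and no error bar. Ifngr2, at 6.37 FPKM in TMX and 28.5 FPKM in con, is the only red bar, and 5 members have a log2 fold change within 0.2 of 0.

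The ligand-binding chain of the same type II receptor was not called. Ifngr1 was at 59.8 FPKM in TMX and 62.3 FPKM in con (q = 0.967 in the authors' deposited table). It had the highest FPKM of the 9 members in both conditions. The FPKM of Ifngr1 was 9.39 times that of Ifngr2 in TMX and 2.18 times in con, computed from the authors' deposited table. Ifngr2 had the third lowest value of the 9 members in TMX and the fourth highest in con. With no spread beside the values, neighbours in this order cannot be told apart.

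Neither chain of the type I receptor was called. Ifnar1 was at 13.6 FPKM in TMX and 14.3 FPKM in con, with a log2 fold change of -0.07 (q = 0.959 in the authors' deposited table). Ifnar2, whose gene also makes a soluble form that a gene-level value includes, was at 8.92 FPKM in TMX and 4.93 FPKM in con in the authors' deposited table. Its log2 fold change of 0.74, the highest of the members, was not called (q = 0.718 in the authors' deposited table). The FPKM of Ifnar1 was 1.53 times that of Ifnar2 in TMX and 2.90 times in con, computed from the authors' deposited table.

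Neither chain of the type III receptor was called. Ifnlr1, the chain specific to interferon-lambda, had the lowest FPKM of all members, at 3.88 in TMX and 3.94 in con (q = 0.986 in the authors' deposited table). Il10rb, which also serves the IL-10 and IL-22 receptors, was at 16.6 FPKM in TMX and 32.4 FPKM in con in the authors' deposited table. Its log2 fold change of -0.93 had a p-value of 0.0172 (q = 0.106 in the authors' deposited table), above the threshold. The FPKM of Il10rb was 4.28 times that of Ifnlr1 in TMX and 8.23 times in con, computed from the authors' deposited table. Ifnar2 and Il10rb share a merged locus in the authors' deposited table with Gm21970, a gene model that overlaps both and is listed at 0 in both conditions. Ifnar2 and Il10rb do not overlap each other in the annotation. The sources used here do not say how reads were divided among the 3 genes of this locus. The opposite signs of Ifnar2 and Il10rb are therefore less certain than values of genes with a locus of their own.

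None of the kinases was called. Jak1, which serves all 3 interferon receptors, was at 22.0 FPKM in TMX and 21.9 FPKM in con (q = 0.994 in the authors' deposited table). Jak2, the kinase paired with Ifngr2, was at 31.4 FPKM in TMX and 50.9 FPKM in con in the authors' deposited table. With a log2 fold change of -0.68, it had p = 0.0327 and q = 0.164 in the authors' deposited table. Tyk2, the partner of the Ifnar1 and Il10rb chains, was at 5.83 FPKM in TMX and 6.63 FPKM in con (q = 0.942 in the authors' deposited table). The deposited locus of Tyk2 also covers several neighbouring genes and an antisense gene, and that of Jak1 also covers Raver2. Jak3, the JAK kinase of receptors with the common gamma chain, was at 1.11 FPKM in TMX and 1.23 FPKM in con (q = 0.939 in the authors' deposited table).

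How large a difference the authors' test called at these levels can be read from the other genes. Among 7533 tested genes with a mean of 1 to 10 FPKM, 10.7% were called and the smallest called log2 fold change was 0.59 in size in the authors' deposited table. Among 5363 tested genes with a mean of 10 to 100 FPKM, 14.3% were called and the smallest was 0.77 in size in the authors' deposited table. The median size among called genes was 1.44 in the lower and 1.51 in the higher of these ranges. The differences of Ifnar2 and Il10rb are larger than the smallest called in their range but smaller than the median called. That of Jak2 is smaller than both. At an unadjusted p under 0.05, Ifngr2, Il10rb and Jak2 were lower and no member was higher, beside 10.7% of all tested genes lower and 22.8% in either direction by that rule in the authors' deposited table. A q-value above 0.05 does not show that a chain or kinase was equal in the 2 conditions.

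Around the receptor genes of chromosome 16, 1 of 9 tested neighbours was called, a share of 11.1% beside 12.3% of all tested genes, and that gene lies next to Ifngr2. The window from 200 kb before Ifnar2 to 200 kb after Ifngr2 held 29 annotated genes, of which 4 were members and 9 of the other 25 were tested. Tmem50b, a membrane protein gene on the opposite strand just beyond Ifngr2, fell to 3.76 FPKM in TMX, against 13.1 FPKM in con, with a log2 fold change of -1.56 (q = 0.00112 in the authors' deposited table). The other 6 tested protein-coding neighbours were not called. Gart, a purine synthesis enzyme gene, was at 16.8 FPKM in TMX and 10.04 FPKM in con (q = 0.252 in the authors' deposited table). Son, a splicing cofactor gene, was at 202 FPKM in TMX and 163 FPKM in con (q = 0.930 in the authors' deposited table). Donson, Cryzl1, Itsn1 and Dnajc28 had log2 fold changes of 0.67, -0.43, 0.24 and -0.43 in the authors' deposited table. The genes Ifngr2 and Tmem50b point towards each other, so their starts are apart and their ends are near. The deposited locus of Ifngr2 equals its annotated gene (GRCm38 chromosome 16, 91547072 to 91565623) and so does not include Tmem50b.

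**Figure D2:**
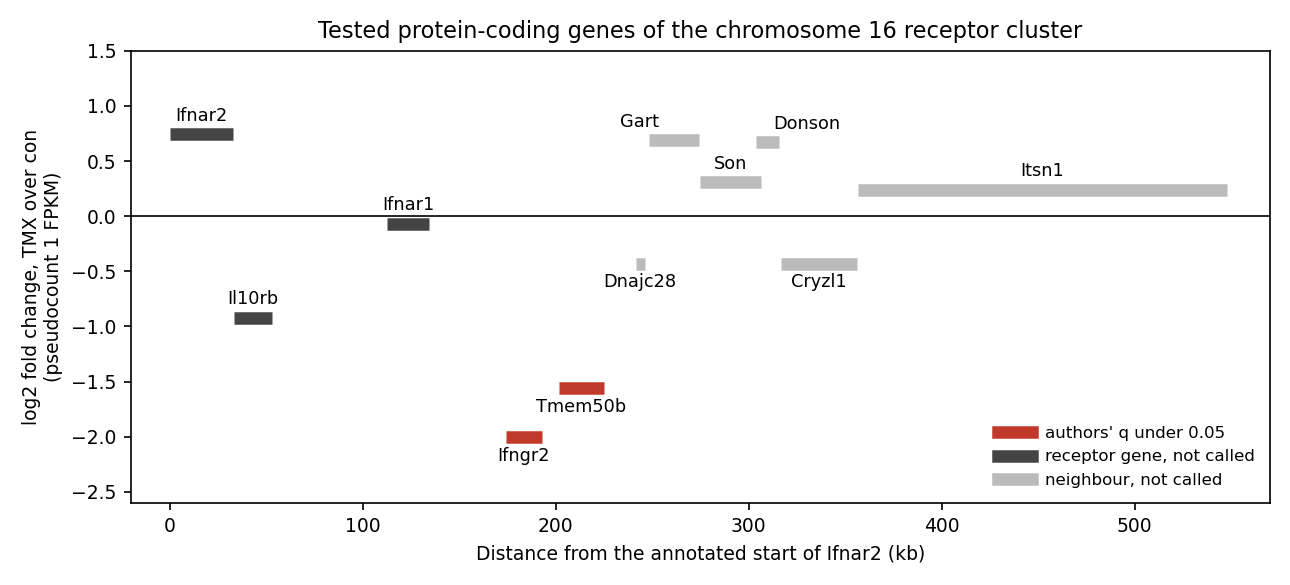
Tested protein-coding genes of the chromosome 16 window, each drawn as a bar from its annotated left to right end, by distance from the start of Ifnar2 in kb and by log2 fold change of TMX over con. Red bars were called by the authors. Ifngr2 at -2.00 and its neighbour Tmem50b at -1.56 are red, while Ifnar1, between Il10rb and Ifngr2, lies at -0.07.

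The ligand genes were listed at 0 or under 1 FPKM. Of 21 interferon genes, 16 were listed at 0 in both conditions and none was tested in the authors' deposited table. A listed 0 does not by itself show that a gene is silent. A gene model named Atp5o was also listed at 0 in TMX and at 0.151 FPKM in con in the authors' deposited table. That model spans 91684398 to 91926982 on chromosome 16 and overlaps Cryzl1 and Itsn1. With that overlap it is no example of a widely used gene listed at 0, and it does not say how the ligand genes were counted. Ifnl2 and Ifnl3, the mouse interferon-lambda genes, were at 0.460 and 0.346 FPKM in TMX and listed at 0 in con in the authors' deposited table. Ifng was at 0.0355 FPKM in TMX and 0.467 FPKM in con in the authors' deposited table. Ifna4 was at 0.0550 FPKM in TMX and listed at 0 in con, and Ifnk was listed at 0 in TMX and at 0.0283 FPKM in con, in the authors' deposited table. The type I and III receptor chains stood at 3.88 FPKM or more in TMX beside ligand genes listed under 1 FPKM.

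Downstream of the receptors, a component of the type I and III signal that was called is Stat2. It rose to 81.5 FPKM in TMX, against 34.6 FPKM in con, with a log2 fold change of 1.21 (q = 0.0194 in the authors' deposited table). Irf9, the DNA-binding partner of STAT2, was at 34.1 FPKM in TMX and 20.4 FPKM in con (q = 0.359 in the authors' deposited table). Of the 7 STAT and IRF9 genes described here, all tested, 1 rose and none fell, which is 14.3% beside 12.3% of all tested genes. Their median log2 fold change was 0.17 beside 0.05 over all tested genes.

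Inhibitors of the receptors and kinases held 1 rise and 1 fall among 19 tested genes, a called share of 10.5% beside 12.3% of all tested genes. Usp18, whose product binds IFNAR2 and blocks JAK1 there, rose to 121 FPKM in TMX, against 18.0 FPKM in con, with a log2 fold change of 2.68 (q = 0.00112 in the authors' deposited table). Usp18 is itself an interferon-stimulated gene and also stands in that list. Socs2, best known as a brake on growth hormone signalling, fell to 14.9 FPKM in TMX, against 31.0 FPKM in con (q = 0.0145 in the authors' deposited table). Socs1, which inhibits JAK kinases at interferon receptors, was at 1.40 FPKM in TMX and 0.935 FPKM in con (q = 0.596 in the authors' deposited table). Socs3, an inhibitor at IL-6 family receptors, was at 19.7 FPKM in TMX and 21.3 FPKM in con (q = 0.919 in the authors' deposited table). Over the inhibitors the median log2 fold change was -0.05, beside 0.05 over all tested genes.

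Among the genes that interferon receptors switch on, those of the interferon-stimulated list were largely higher in TMX and the interferon-gamma targets went both ways. Of 30 tested interferon-stimulated genes, 24 rose and none fell by the authors' deposited calls, with a median log2 fold change of 2.24. Of all tested genes, 6.60% were called higher and 5.70% lower, with a median log2 fold change of 0.05. Myeloid markers were higher too, with 10 of 16 called higher, and their part in the interferon-stimulated values was not tested. The antiviral genes Mx1 and Ifit3 had log2 fold changes of 4.05 and 4.01 in the authors' deposited table. Rsad2, Ifit3b and Ifit2 followed with log2 fold changes of 3.91, 3.71 and 3.59 in the authors' deposited table. Of 25 tested interferon-gamma targets, 6 rose and 6 fell, a called share of 48.0% beside 12.3% of all tested genes. Their median log2 fold change was 0.38. The chemokine gene Cxcl10 rose by a log2 fold change of 3.75 and the guanylate-binding protein gene Gbp3 by 3.56 in the authors' deposited table. H2-Aa and H2-Ab1, chains of MHC class II, had log2 fold changes of -3.66 and -3.56 in the authors' deposited table. Their transactivator Ciita fell to 0.945 FPKM in TMX, against 17.9 FPKM in con (q = 0.00112 in the authors' deposited table). Irf1, a transcription factor that acts upstream of Ciita, fell to 59.8 FPKM in TMX, against 132 FPKM in con (q = 0.0307 in the authors' deposited table). Many interferon-gamma targets also respond to type I interferon, and no test of the difference between these lists was made.

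**Figure D3:**
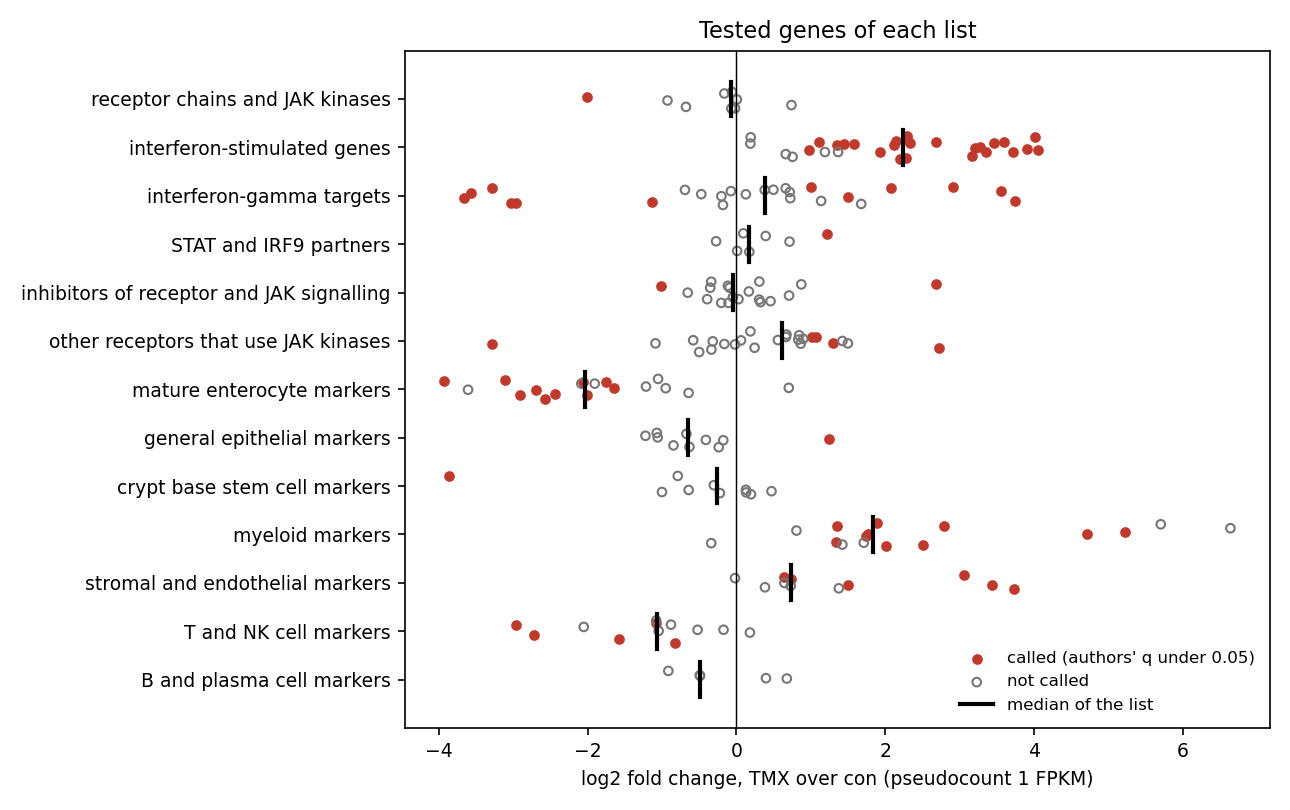
Log2 fold change of TMX over con (pseudocount 1 FPKM) for every tested gene of each list, with called genes in red, others as open circles and the median of each list as a black line; vertical scatter is for display. The receptor chains and kinases lie around a median of -0.07, the interferon-stimulated genes around 2.24 and the mature enterocyte markers around -2.03.

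Receptors outside the interferon system that signal through JAK kinases included 5 called genes among the 24 tested of 36 listed, or 20.8% beside 12.3% of all tested genes. By the authors' deposited calls 4 rose and 1 fell, beside 6.60% higher and 5.70% lower of all tested genes, with a median log2 fold change of 0.61 beside 0.05 over all tested genes. Il6st, the gp130 chain shared by the IL-6 family, rose to 13.3 FPKM in TMX, against 5.80 FPKM in con (q = 0.00897 in the authors' deposited table). Osmr, which joins gp130 to bind oncostatin M, rose to 7.46 FPKM in TMX, against 0.284 FPKM in con (q = 0.0317 in the authors' deposited table). Csf2rb, the common beta chain for GM-CSF, IL-3 and IL-5, rose to 2.71 FPKM in TMX, against 0.501 FPKM in con (q = 0.0189 in the authors' deposited table). Il10ra, which pairs with Il10rb to bind IL-10, rose to 1.52 FPKM in TMX, against 0.240 FPKM in con (q = 0.0155 in the authors' deposited table). Prlr, the prolactin receptor and a JAK2 user, fell to 5.67 FPKM in TMX, against 63.9 FPKM in con, with a log2 fold change of -3.28 (q = 0.00112 in the authors' deposited table). Il22ra1, which pairs with Il10rb to bind IL-22 on epithelium, was at 20.7 FPKM in TMX and 23.3 FPKM in con (q = 0.843 in the authors' deposited table).

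**Figure D4:**
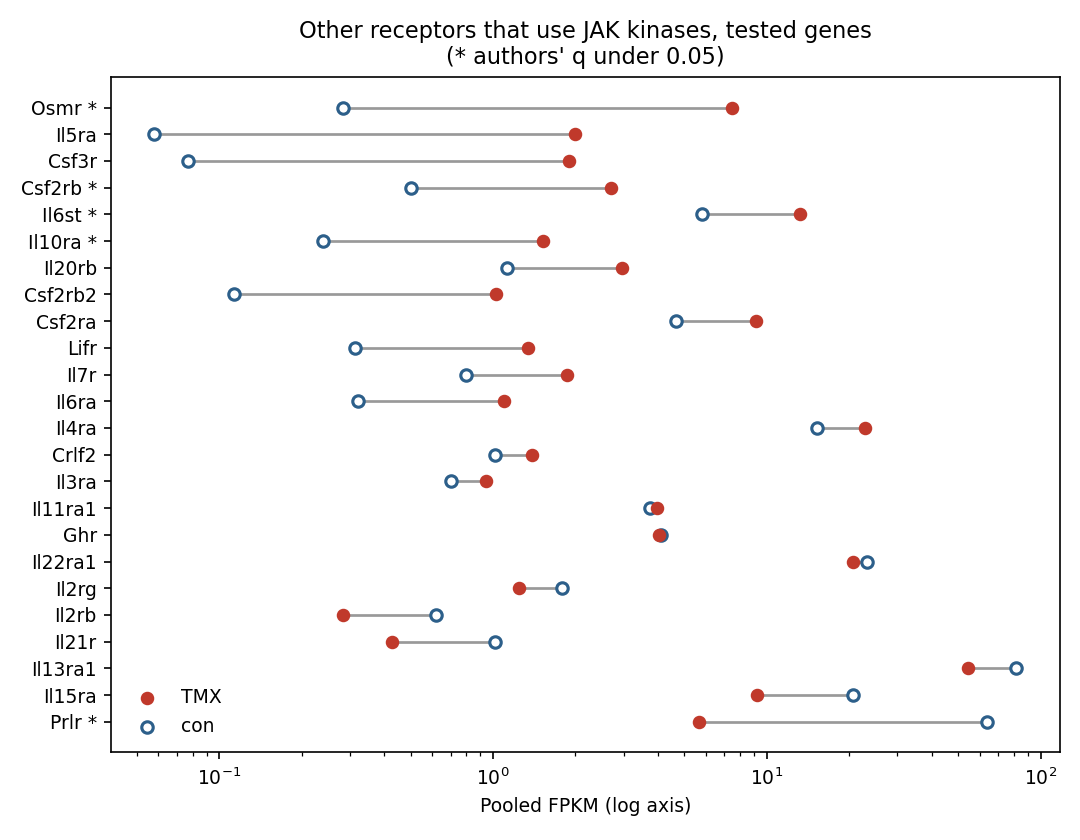
Pooled FPKM of the 24 tested receptors outside the interferon system that use JAK kinases, in TMX (filled red) and con (open blue) on a log axis, ordered by log2 fold change; an asterisk marks the authors' calls. Osmr is at the top, with 7.46 FPKM in TMX and 0.284 FPKM in con, and Prlr is at the bottom, with 5.67 FPKM in TMX and 63.9 FPKM in con.

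Markers of several cell types moved between the conditions, and their part in the values above was not tested. In bulk RNA, fewer cells of a type and less RNA per cell cannot be told apart. Of all tested genes, 12.3% were called, 6.60% higher and 5.70% lower in TMX. The called shares were 55.6% for mature enterocyte, 62.5% for myeloid, 54.5% for stromal and endothelial and 41.7% for T and NK cell markers. The crypt base stem cell and general epithelial lists, with 1 of 10 called each, were close to the share of all tested genes. Of 18 tested mature enterocyte markers, none rose and 10 fell by the authors' deposited calls, and their summed level was 7422 FPKM in TMX and 24920 FPKM in con, in the direction of Ifngr2 and Prlr. The largest parts of that sum, Fabp2, Fabp6 and Sis, were not called. All 10 general epithelial markers were above 0 in both conditions, and 1, Krt18, rose and none fell by the authors' deposited calls. Of these 10 markers, 9 had a log2 fold change below 0 and 5 were lower at an unadjusted p under 0.05, with a median log2 fold change of -0.65 and a summed level of 1966 FPKM in TMX and 3193 FPKM in con. In the authors' deposited table Epcam was at 372 FPKM in TMX and 869 FPKM in con (q = 0.129). Of 10 crypt base stem cell markers, none rose and 1, Olfm4, fell by the authors' deposited calls, while 4 were lower at an unadjusted p under 0.05. By that rule 10.7% of all tested genes were lower, so both these 4 of 10 and the 5 of 10 general epithelial markers stood above that share. Of 16 myeloid markers, 10 rose and none fell by the authors' deposited calls, with a summed level of 446 FPKM in TMX and 33.6 FPKM in con, in the direction of Csf2rb and Il10ra. In that sum S100a8 and S100a9, which were not called, stood at 104 and 72.1 FPKM in TMX. The myeloid list shares Csf3r with the other receptors and Ptprc with the inhibitors. Ly6g, a granulocyte marker, was listed at 0 in con in the authors' deposited table. Of 11 tested stromal and endothelial markers, 6 rose and none fell by the authors' deposited calls, with a summed level of 169 FPKM in TMX and 14.6 FPKM in con, in the direction of Osmr. Of 12 tested T and NK cell markers, none rose and 5 fell by the authors' deposited calls, with a summed level of 58.4 FPKM in TMX and 343 FPKM in con, in the direction of Ifng. Gzma alone made up 40.4 FPKM of that sum in TMX and 270 FPKM in con. Of 5 tested B and plasma cell markers, none was called by the authors, and 1, Jchain, was higher at an unadjusted p under 0.05.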

How the data were processed

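Per the labels, RNA came from uncultured ileal crypts of 3 Adar iΔgut and 3 Adar fl/fl mice, numbered as biological replicates. STAR, Cufflinks and the mouse build GRCm38 were used, per the submitters' processing notes, with no version or parameter given in the sources used here. Per the file headers, the authors gave 1 FPKM per gene and condition, a log2 fold change, a test statistic (a score), a signed log p score, a p-value and a q-value. The deposited log2 fold change equalled log2 of TMX + 1 over con + 1 FPKM, and Benjamini-Hochberg adjustment over the 15762 genes of status OK gave the deposited q-value. Another 39624 genes were not tested and 60 had a status for excess data, which were left out. No library values were used, so the planned limma fit could not be made and the authors' test was described with no new test. Depth per library, its precision and strandedness are unknown.

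All 55446 gene identifiers were found in GENCODE vM21, which gave the 1-based coordinates, and 27 symbols turned into dates were restored. The members and the 14 gene lists were chosen with earlier results of these data known. Named genes were the members, Adar, the called genes of each pathway list (at most 5, by size of change), key regulators, interferons above 0, the tested protein-coding neighbours on chromosome 16, the 3 genes nearest to Ifngr2 and single markers. Gm21970, Raver2, Il22ra1, Atp5o, Krt18, Epcam, Jchain, Ly6g, Fabp2, Fabp6, Sis, S100a8, S100a9 and Gzma were named after their values were seen. RefSeq promoters (GRCm38.p6) matched 8 of 9 members. Alternatives changed the pseudocount, scaling, filter and threshold. The adjustment was tested on simulated data. A result on 1 other gene of the signalling list is not reported here. The software was numpy 2.4.6 and pandas 2.3.3 in Python 3.11.15, with matplotlib 3.10.9 for plots.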

Additional observations from a re-analysis of the deposited data

How the results depend on the processing

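No paired analysis was possible because the deposited table has 1 pooled value per condition, and for the same reason no replicate could be left out. Ifngr2 was the only member called, and lower, after the deposited p-values were adjusted over protein-coding genes, over genes with a mean of at least 1 FPKM or over all genes without excess data, and at a q under 0.01, with no member called higher in any of these. Its deposited p-value is the lowest listed, shared by 704 genes, so these settings could hardly remove its call. At an unadjusted p under 0.05, 3 members were lower. Rescaling to an equal sum of FPKM moved the median log2 fold change of all tested genes by 0.17. Relative to 0 it turned Ifnar1 to 0.13, Ifnlr1 to 0.16, Ifngr1 to 0.15 and Tyk2 to 0.024. An equal upper quartile turned Ifnlr1 to 0.023, and centring on the median of tested genes turned Jak1 to -0.048. None of these genes was called. Centring moved the median of the inhibitor list to -0.10, and a pseudocount of 0.1 FPKM moved that of the STAT and IRF9 list to 0.31. Of the other values recomputed, 100 were rated as the same. For fold changes this meant the same sign, and for adjusted p-values the same side of 0.05. For counts, medians of lists and ratios of chains it meant a change within a fixed factor. Medians of 3 marker lists moved at a pseudocount of 0.1 FPKM, to 3.21 for myeloid, 2.32 for stromal and endothelial and -0.77 for B and plasma cells. The lack of values per library limits every statement on spread.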

Other observations

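The tested protein-coding genes nearest to Ifngr2 by their pair of log2(FPKM + 1) values were Vnn1, Msra and Slc6a4, over 2 conditions only. Vnn1, a pantetheinase gene, fell to 6.16 FPKM in TMX, against 29.5 FPKM in con, with a log2 fold change of -2.09, per the authors' deposited table. Msra, which encodes a methionine sulfoxide reductase, fell to 6.35 FPKM in TMX, against 27.1 FPKM in con, with a log2 fold change of -1.94, per the authors' deposited table. Slc6a4, the serotonin transporter gene, fell to 5.98 FPKM in TMX, against 27.1 FPKM in con, with a log2 fold change of -2.01, per the authors' deposited table. All 3 were called, at q = 0.00112 in the same table, the lowest q-value listed and shared by 704 genes. Their levels and fold changes lie near those of Ifngr2 because they were chosen by those values.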
